A study of Danio rerio with 9 samples.

Results

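The long arm of zebrafish chromosome 4 between 25 and 65 Mb, in the genome build GRCz11, was densely occupied by peaks in maps of accessible chromatin from spermatozoa. Its members were all peaks of the 9 deposited lists that start in this interval of 40 Mb, joined into regions wherever peaks of different lists overlapped by at least 1 bp. This gave 12454 peaks of 253847 in all and 4239 regions of 126838. The interval was set by position, with a lower edge that had been placed with earlier results of these data known. Its repeat content was not measured here, because no sequence or repeat annotation of GRCz11 was used.

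Spermatozoa had been profiled by ATAC-seq in 5 libraries from male zebrafish (Danio rerio) whose hearts had been injured by freezing (cryoinjury) 7 days earlier, and in 4 libraries from uninjured control males. The assay relies on Tn5 transposase, which inserts adapters where DNA is open, so that reads pile up into peaks. Each library was made from 100000 spermatozoa, and the labels give no strain, fish age or genotype and do not say whether a library came from 1 male, so p-values measure no more than the differences among these 9 libraries, which may be of technical origin. List lengths were 15508 to 29622 peaks for injured and 30126 to 45277 for control libraries. Means between groups are given ± SD over 5 injured and 4 control libraries unless another n is named. Read depth per library is unknown, so the lack of a peak means that a region was not detected there, not that it was closed. Peak lists hold no transcript levels, so purity of the sperm could not be checked against marker genes.

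In many vertebrates sperm replace histones with protamines, but zebrafish sperm keep nucleosomes, and accessible sites can therefore be mapped in them as in other cells. The long arm of chromosome 4 is known in zebrafish as late-replicating and heterochromatic. It is poor in ordinary single-copy genes and rich in repeats, in gene families for zinc finger proteins and NLR-type immune receptors, and in copies of small structural RNA genes. It also carries the miR-430 cluster, whose microRNAs clear maternal transcripts in the early embryo. Nothing in the peak lists names a gene, so regions are given here by position only.

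Lists of unequal length cannot be compared directly, so each list was also cut to its 15508 best-ranked peaks, the length of the shortest list. Peaks were ranked by the authors' peak score. The cut takes away last-ranked peaks, and more of them from longer lists, so the equal-length lists differ in the lowest score kept. In these equal-length lists the stretch carried 25.5 ± 3.44 peaks per Mb (SD, n = 9 libraries). The first 25 Mb of the chromosome carried 10.96 ± 1.64 peaks per Mb, the part past 65 Mb 13.7 ± 2.50, and the other numbered chromosomes 9.37 ± 0.149 (SD, n = 9 each). The mean density was highest in the stretch. In the lists as deposited the mean densities were 34.6 peaks per Mb in the stretch, 25.7 in the first 25 Mb, 20.2 past 65 Mb and 17.4 on the other chromosomes. Injured library 2 was an exception there, with a density 0.957 times that of the first 25 Mb.

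**Figure D1:**
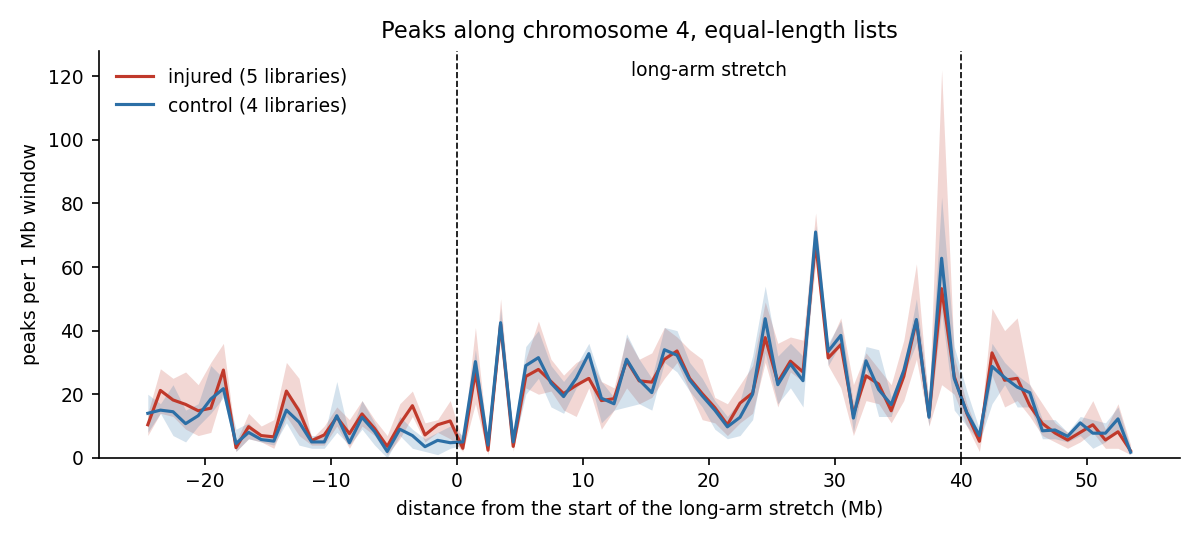
Peaks per 1 Mb window along chromosome 4 in the equal-length lists, against distance in Mb from the start of the long-arm stretch, whose limits are the dashed lines. Lines are group means and bands run from the lowest to the highest library. The tallest mean peak lies in the window from 53 to 54 Mb, and the widest band, in injured libraries, in that from 63 to 64 Mb.

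Occupancy was uneven along the stretch. Over its 40 windows of 1 Mb the 9 deposited lists together held 46 to 747 peaks, with a median of 308. The lowest totals were 46 peaks at 25 to 26 Mb, 54 at 27 to 28 Mb and 65 at 29 to 30 Mb. These sparse windows alternated with dense ones, since 26 to 27 Mb held 345 peaks and 28 to 29 Mb held 408. From 30 Mb on, the lowest total was 114, at 46 to 47 Mb. The most occupied windows were 53 to 54 Mb with 747 peaks, 63 to 64 Mb with 727 and 61 to 62 Mb with 475, and these 3 windows held 15.6% of the stretch's peaks.

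The edges of the interval did not fall on strong sites. The last region before 25 Mb (24994599 to 24994793) and the first inside (25004724 to 25004986) were each detected in 1 injured and 0 control libraries. At the far end, the last region inside (64989942 to 64990116) was detected in 0 injured and 1 control library, and the first past 65 Mb (65023498 to 65023716) in 1 injured and 0 control libraries.

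The first-ranked site of the stretch was also among the strongest peaks of every library. It lies at 63365098 to 63366854 of chromosome 4. Its best peak held rank 7, 4, 1, 1 and 3 in injured libraries 1 to 5 and rank 2, 5, 5 and 4 in control libraries 1 to 4, out of 15508 to 45277 peaks. The rank was thus high in all 9 lists and the ranges of both groups overlapped. Its left edge varied by 2 bp, from 63365098 to 63365100, whereas its width varied. Injured libraries 2, 3, 4 and 5 had widths of 948, 596, 600 and 593 bp, and injured library 1 had 1729 bp. Control libraries 1 and 3 had 610 and 608 bp, and control libraries 2 and 4 had 1755 and 1641 bp. Both groups therefore held narrow and wide peaks at this site.

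The next site in rank lies at 63444666 to 63445871. It held rank 69, 198, 31, 34 and 54 in injured libraries and 35, 71, 51 and 62 in control libraries. Its peak was 900 to 1198 bp wide across injured and 871 to 933 bp across control libraries. The ranges of rank overlapped, with injured library 2 furthest down.

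The other leading sites lay at the near end of the stretch. The region at 28565795 to 28566536 held rank 107, 211, 70, 99 and 37 in injured and 59, 118, 83 and 82 in control libraries. The region at 26868136 to 26869367 held rank 94, 236, 95, 95 and 74 in injured and 58, 85, 96 and 89 in control libraries. Injured library 2 gave the lowest standing in both, and the groups overlapped. The other 4 regions completed the 8 best-ranked, at 28694299 to 28695813, 28884030 to 28885007, 28700569 to 28701428 and 28871082 to 28871524. Their ranks ran from 55 to 289 across injured libraries and from 70 to 294 across control libraries. Of the 8 leading regions, 5 therefore lay between 28 and 29 Mb.

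Many of the recurrent regions stood in close rows. Regions detected in at least 5 libraries were joined into a run where the gap between neighbours was at most 5 kb, a description set after the data had been seen. Of the 823 such regions in the stretch, 434 (52.7%) lay in a run of 2 or more. The share was 17.3% of 156 regions in the first 25 Mb, 41.1% of 146 past 65 Mb and 22.1% of 8796 on the other numbered chromosomes. Runs of at least 8 regions numbered 6 in the stretch, 0 in the first 25 Mb, 1 past 65 Mb and 19 on the other chromosomes. These parts span 40, 25, about 13.1 and about 1267 Mb. With a fixed gap of 5 kb, shares in runs also rise with the density of recurrent regions, whose part was not tested.

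The longest run in the stretch, from 53467907 to 53523173, held 25 regions in 55.3 kb, of which 15 were detected in all 9 libraries. Midpoints of neighbouring regions were 1999.5 bp apart at the median, with distances from 916 to 4613 bp. These distances lie between joined regions detected in at least 5 libraries, so whether the sites follow a fixed step was not tested. The run held 40, 33, 28, 29 and 34 peaks in injured libraries 1 to 5 and 39, 39, 42 and 37 in control libraries 1 to 4. Only injured library 1 reached the control range, and in the equal-length lists the counts overlapped, with 24 to 35 for injured and 29 to 37 for control libraries.

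The second run, from 61478711 to 61513026, held 18 regions in 34.3 kb with a median distance of 1407 bp between midpoints. It had 16, 13, 13, 18 and 18 peaks in injured and 16, 16, 15 and 18 in control libraries. Both rows at 28 to 29 Mb were made of better-ranked sites. The run from 28871082 to 28887706 held 10 regions, 8 of them detected in all 9 libraries, with a median rank percentile of 97.5, where 100 is the best-ranked peak of a list. The run from 28694299 to 28709769 held 8 regions, all 8 detected in all 9 libraries, with a median rank percentile of 98.6. This last run had 10, 8, 8, 11 and 9 peaks in injured and 10, 9, 10 and 8 in control libraries, so the groups overlapped. The remaining runs lay at 42249231 to 42263544, with 9 regions, and at 63343984 to 63357117, with 8. The run at 42249231 had 10, 6, 6, 7 and 8 peaks in injured and 10, 9, 13 and 8 in control libraries, which overlapped. The run at 63343984 had 18, 4, 3, 3 and 6 peaks in injured and 10, 13, 14 and 13 in control libraries. Injured library 1 was above every control library there and the other 4 injured libraries were below every one.

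Short stretches inside the 2 densest windows differed in how far libraries were alike. Both stretches were picked after their values had been seen. From 53.4 to 53.55 Mb, 150 kb around the longest run, there were 67, 56, 52, 52 and 64 peaks in injured and 66, 68, 70 and 65 in control libraries. Injured library 1 lay within the control range and the other injured libraries below it, and 28 of its 53 regions were detected in all 9. Injured libraries averaged 58.2 ± 6.94 peaks and control libraries 67.25 ± 2.22 (exact permutation p = 0.0714). Without injured library 1 it was 56.0 ± 5.66 in injured libraries (SD, n = 4; exact permutation p = 0.0286, unadjusted). Since only this injured library overlapped the control range, leaving it out fixed the separation. That p is the smallest that 4 against 4 libraries allow. Leaving out any other library gave an exact permutation p from 0.0536 to 0.114. At equal length injured libraries averaged 54.2 ± 8.14 and control libraries 57.25 ± 5.32 (exact permutation p = 0.563), and 52.75 ± 8.62 in injured libraries without library 1 (exact permutation p = 0.486). From 63.3 to 63.5 Mb, 200 kb around the first-ranked site, there were 143, 21, 12, 28 and 40 peaks in injured and 62, 76, 90 and 83 in control libraries. Injured library 1 lay above every control library and the other injured libraries below every one.

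In the 200 kb stretch injured libraries averaged 48.8 ± 53.6 peaks and control libraries 77.8 ± 12.0, within the spread between libraries (exact two-sided permutation p = 0.341). Without injured library 1 it was 25.3 ± 11.8 in injured and 77.8 ± 12.0 in control libraries (SD, n = 4 each; exact permutation p = 0.0286, unadjusted, for a stretch chosen after its values were seen). The library left out was the only injured one not below every control library. The separation thus followed from that choice, and this p is the smallest that 4 against 4 libraries allow. Leaving out any other library gave an exact permutation p from 0.304 to 0.571. In the equal-length lists the stretch held 113, 18, 12, 21 and 37 peaks in injured and 36, 67, 65 and 31 in control libraries. There the groups overlapped also without injured library 1 (exact permutation p = 0.0857). Of the 168 regions in it as deposited, 6 were detected in all 9 libraries.

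A few regions were far wider than a usual peak. The widest of those detected in all 9 libraries spanned 11255 bp, at 49372763 to 49384017, and was made of 3 to 12 separate peaks per library. The next spanned 7244 bp, at 40245969 to 40253212, with 3 to 7 peaks per library, and 5053 bp, at 44374895 to 44379947, with 1 to 5. Peaks covered 1277 to 8356 bp of the widest one, depending on the library, so its outline came from joining the lists and not from any 1 of them.

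**Figure D2:**
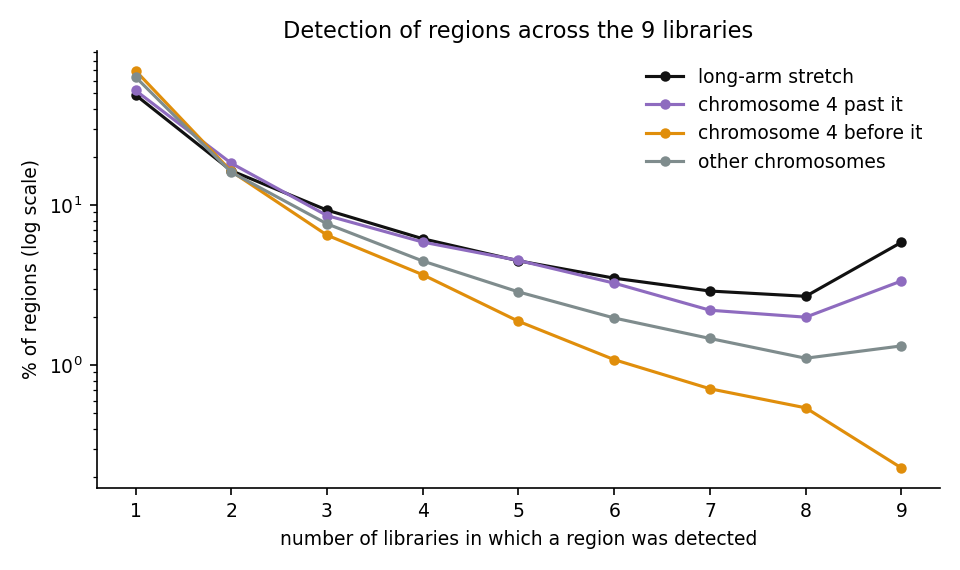
Percentage of regions, on a log scale, by the number of libraries in which they were detected, for the long-arm stretch and 3 other parts of the genome. All values are from the lists as deposited. In the stretch 5.85% of regions reached all 9 libraries, against 0.228% in the part of chromosome 4 before it, 3.35% in the part past it and 1.32% on the other chromosomes.

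Recurrence in the stretch was well above that of the first 25 Mb and of the other chromosomes, and closer to that of the neighbouring part past 65 Mb. Of its 4239 regions in the lists as deposited, 248 (5.85%) had a peak in every library and 2066 (48.7%) in just 1. In the first 25 Mb 0.228% of regions were detected in all 9, past 65 Mb 3.35%, and on the other numbered chromosomes 1.32%. The stretch thus held 13.1% of the 1893 regions common to all libraries of the series. Common regions of the stretch had a median width of 895 bp (235 to 11255 bp), and those seen in 1 library 199 bp. Of the regions seen once, injured libraries 1 to 5 held 250, 95, 48, 361 and 127, and control libraries 1 to 4 held 317, 316, 163 and 389. At equal length 7.26% of the regions of the stretch were detected in all 9 libraries. The share there was 0.316% in the first 25 Mb, 3.78% past 65 Mb and 1.95% on the other numbered chromosomes.

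Common regions were found along the whole stretch. By blocks of 5 Mb they numbered 31 from 25 to 30 Mb, then 25, 25, 35 and 15 up to 50 Mb, 59 from 50 to 55 Mb, and 27 and 31 up to 65 Mb. As a share of the regions in a block they ranged from 3.43% at 45 to 50 Mb to 11.7% at 25 to 30 Mb. The lowest share was still above the 1.32% of the other numbered chromosomes.

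The peaks of each library were compared within that library, over the 9 libraries, by an exact two-sided sign-flip permutation test. Its smallest possible p is 0.00391. The test shows only whether a difference recurs over libraries. How far other intervals of this length differ from the pooled chromosomes was not tested. In the equal-length lists 85.5% ± 4.36 of the peaks of the stretch overlapped a region that another library also had, against 69.4% ± 4.52 on the other numbered chromosomes (SD, n = 9). The stretch was higher in 9 of 9 libraries, by 16.1 ± 7.08 percentage points (exact permutation p = 0.00391). Against the first 25 Mb, with 53.9% ± 6.83, the difference was 31.6 ± 7.92 points, and against the part past 65 Mb, with 81.1% ± 5.93, it was 4.37 ± 3.19 points (9 of 9 libraries in both, exact permutation p = 0.00391 each).

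Peaks of the stretch were also better ranked and more tightly packed. Their median rank percentile in the lists as deposited was 73.9 ± 3.05, against 48.5 ± 0.559 on the other chromosomes, 38.3 ± 1.87 in the first 25 Mb and 65.3 ± 4.40 past 65 Mb (SD, n = 9). A neighbouring peak of the same library lay within 1 kb for 31.4% ± 4.93 of them in the equal-length lists, against 11.5% ± 2.98, 4.45% ± 1.62 and 22.5% ± 3.76 in the same 3 parts. Their median width in the lists as deposited was 266 ± 38.2 bp, against 236 ± 30.5 bp on the other chromosomes. Each of these differences had the same sign in 9 of 9 libraries (exact permutation p = 0.00391). For width the stretch also exceeded the first 25 Mb, with 228 ± 32.8 bp, in 9 of 9 libraries, and the part past 65 Mb, with 245 ± 44.7 bp, in 8 of 9 (exact permutation p = 0.0195). Of these 12 comparisons all passed Benjamini-Hochberg adjustment (adjusted p from 0.00426 to 0.0195). How multiply mapping reads were treated is not given in the sources used here, and its part in these differences was not tested. A close neighbour and an overlap with another library also become likelier where peaks are denser and wider. The part of peak density in these measures was not tested.

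**Figure D3:**
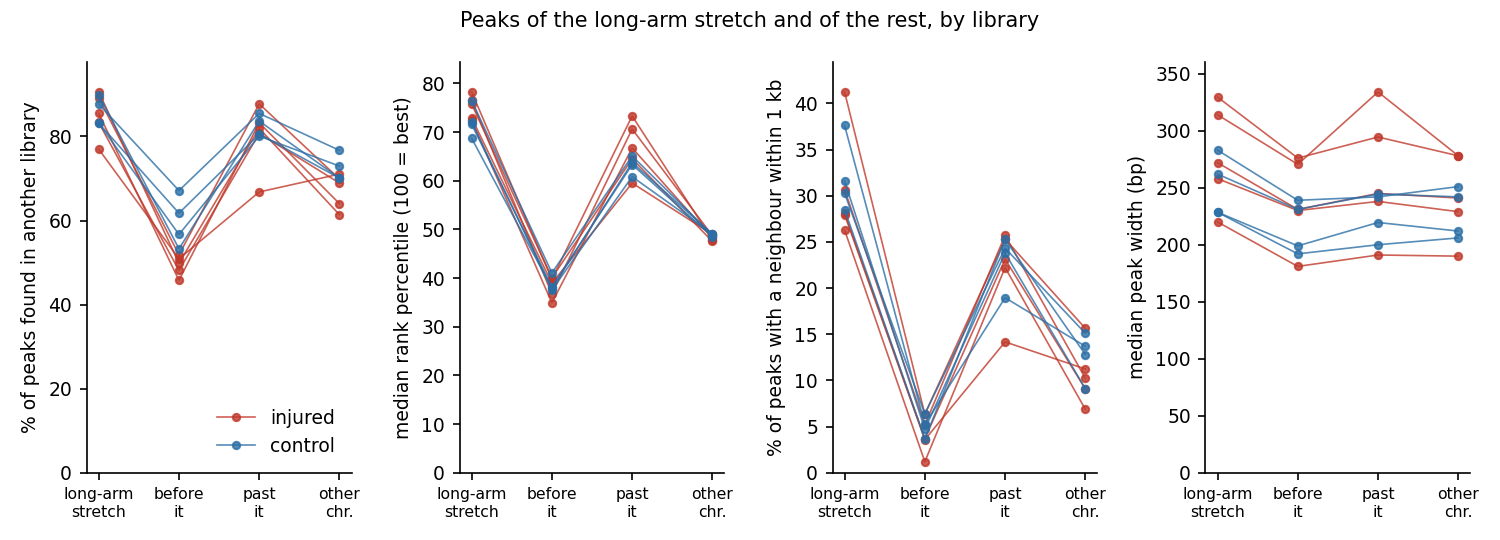
For each of the 9 libraries (lines; injured and control by colour), the percentage of peaks found in another library, the median rank percentile, the percentage of peaks with a neighbour within 1 kb and the median width in bp. The 4 positions on each horizontal axis are the long-arm stretch, chromosome 4 before it, chromosome 4 past it and the other numbered chromosomes. Rank and width are from the lists as deposited, and the percentages are from the equal-length lists. The stretch is highest in 9 of 9 libraries in each panel except width, where 1 library is higher past 65 Mb.

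The better a peak was ranked, the more often it lay in the stretch. Among a library's 1000 best-ranked peaks 14.4% ± 4.15 did, and among its 1000 last-ranked ones 2.18% ± 0.540 (SD, n = 9), a difference of 12.2 ± 4.30 percentage points (exact sign-flip permutation p = 0.00391). Among the best-ranked 1000 the share was 10.9%, 11.4%, 20.5%, 17.3% and 17.0% in injured libraries 1 to 5 and 11.0%, 19.6%, 11.4% and 10.3% in control libraries 1 to 4. The group ranges overlapped, with injured library 3 and control library 2 highest.

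**Figure D4:**
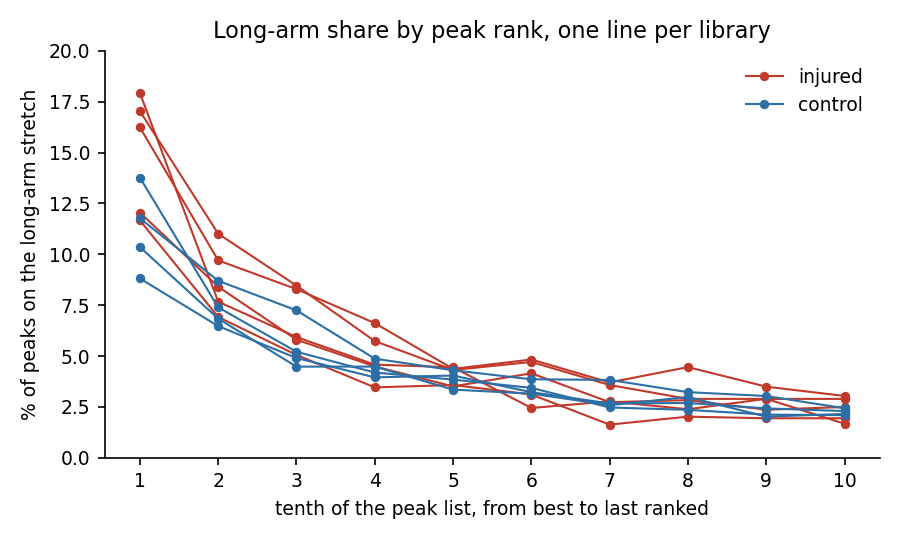
Percentage of peaks on the long-arm stretch in each of 10 equal slices of a library's peak list, from the best to the last ranked, with 1 line per library. The mean share is 13.3% in the first slice and 2.34% in the last, and the 5 injured and 4 control lines overlap.

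The same held among regions common to all libraries. When the 1893 common regions were ranked within each library, the 248 in the stretch had a median rank percentile of 60.9 ± 5.51, against 47.6 ± 1.32 for those on the other chromosomes (SD, n = 9). They were higher in 9 of 9 libraries (exact sign-flip permutation p = 0.00391). This ranking was added after the data had been seen. Where a library had several peaks in a region, the best-ranked one was taken. Common regions had a median width of 895 bp in the stretch and 771 bp on the other chromosomes. The part of region width in these ranks was not tested.

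The comparison of injured with control males addresses whether chromatin accessibility in sperm differs after cryoinjury of the heart. The mean number of long-arm peaks was lower in injured libraries, whose lists were shorter as a whole. Injured libraries 1 to 5 had 1447, 1063, 818, 1555 and 1119 long-arm peaks, and control libraries 1 to 4 had 1684, 1611, 1278 and 1879. Injured libraries 1 and 4 lay within the control range and the other 3 below it. The means were 1200.4 ± 299 peaks in injured and 1613 ± 250.35 peaks in control libraries, a ratio of 0.744, which did not exceed the spread between libraries (exact two-sided permutation p = 0.0794, adjusted p = 0.372 over 8 values). The peaks covered 463 ± 89.9 kb in injured and 594 ± 103 kb in control libraries, with mean widths of 391 ± 36.3 bp in injured and 368 ± 22.3 bp in control lists (exact permutation p = 0.0952 for the covered length). At equal length injured libraries averaged 419.7 ± 57.9 kb and control libraries 459.9 ± 47.7 kb, a difference of -40.2 kb in place of -131.7 kb (exact permutation p = 0.317).

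As a share of each list the order of the groups was the opposite. Of all peaks of a library, the stretch held 4.88%, 4.13%, 5.27%, 6.47% and 6.35% in injured and 5.33%, 4.69%, 4.24% and 4.15% in control libraries. The groups overlapped, and the means of 5.42% ± 0.993 for injured and 4.60% ± 0.538 for control libraries did not differ beyond that spread (exact permutation p = 0.198, adjusted p = 0.372). At equal length injured libraries averaged 6.48% ± 1.07 and control libraries 6.73% ± 0.733 (adjusted p = 0.873, exact permutation p = 0.698). The sign of the difference was therefore not the same in the 2 kinds of list. In the better-ranked 50% of the equal-length lists the difference was again positive, at 0.268 percentage points. The cut left injured library 3, the shortest list, at 5.27% and took control library 4, the longest, from 4.15% to 6.45%. Last-ranked peaks lay less often in the stretch, and the part of this unequal cut in the sign was not tested.

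Against the first 25 Mb of the same chromosome, the peak density of the stretch in the equal-length lists was 2.42, 1.68, 1.53, 2.76 and 2.15 times as high in injured and 2.87, 2.75, 2.47 and 2.85 times in control libraries. Injured library 4 lay within the control range and the other 4 below it. The mean ratios of 2.11 ± 0.513 for injured and 2.74 ± 0.187 for control libraries gave an exact permutation p of 0.0635 (adjusted p = 0.389 over 7 values). As deposited, the ratios were 1.51 ± 0.379 in injured and 1.29 ± 0.163 in control libraries, the opposite sign (exact permutation p = 0.325). The lowest score kept at equal length was 13 to 31 for injured and 29 to 42 for control lists, and its part in the ratio was not tested.

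Width, rank and recurrence of long-arm peaks overlapped between groups. The median width was 279 ± 44.0 bp in injured and 250.5 ± 26.8 bp in control libraries (exact permutation p = 0.317). At equal length, the share of peaks shared with another library was 85.1% ± 5.39 in injured and 86.0% ± 3.38 in control libraries (exact permutation p = 0.817). The median rank percentile was 75.2 ± 2.46 in injured and 72.2 ± 3.20 in control libraries as deposited (exact permutation p = 0.159). With lists of one length it averaged 72.5 ± 3.94 in injured libraries and 67.3 ± 3.48 in control libraries, a difference of 5.15 percentile points in place of 2.96 (exact permutation p = 0.111). None of these passed adjustment, with adjusted p from 0.372 to 0.873. The rank percentile at equal length was counted anew within the cut lists. Injured library 3, the shortest list, kept 78.2 in both kinds of list. Control library 4, the longest, went from 68.7 to 63.2. The part of this unequal cut in the difference in rank was not tested.

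**Figure D5:**
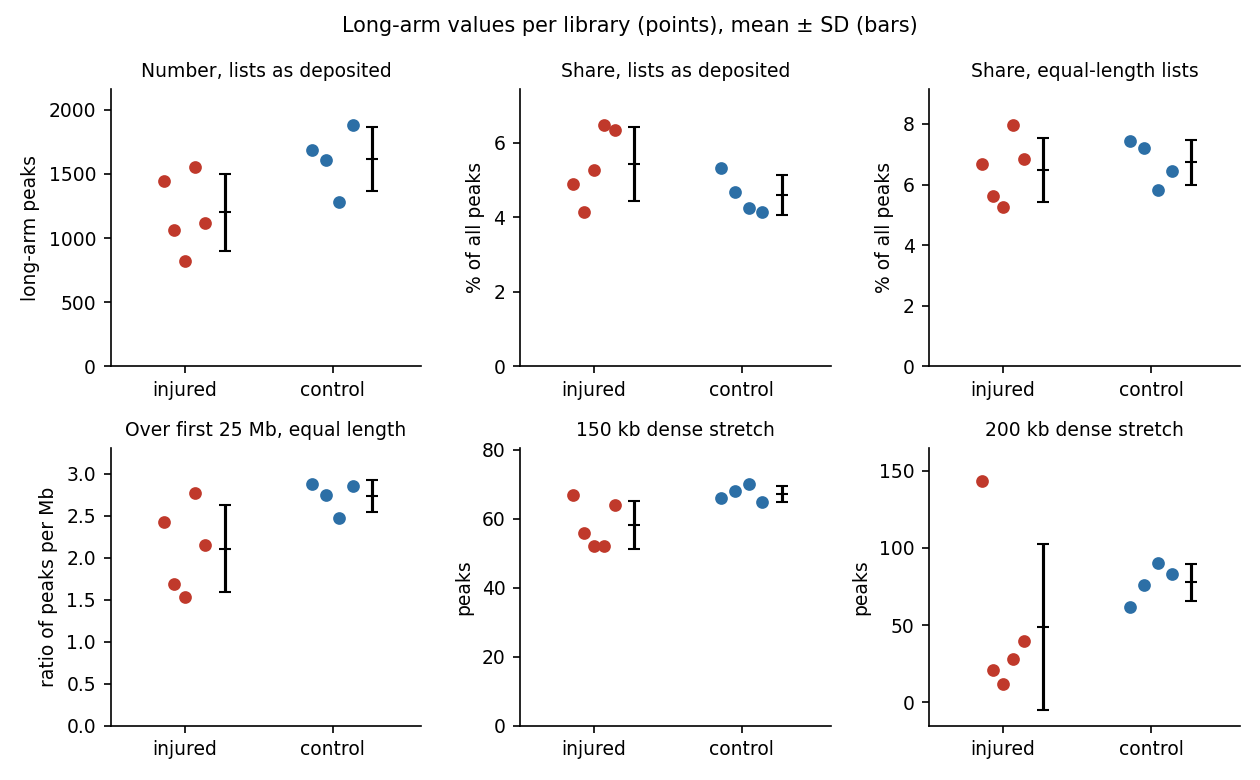
Long-arm values per library (points) with the mean and SD of the 5 injured and 4 control libraries (bars): number of peaks, share of all peaks in both kinds of list, density over the first 25 Mb, and peaks in the 150 kb and 200 kb dense stretches. The groups overlap in the first 4 panels, and in the 150 kb stretch only injured library 1 lies within the control range. In the 200 kb stretch injured library 1, with 143 peaks, stands above all others.

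Single regions were compared by Fisher's exact test on detection, fitted over all 44043 regions of the genome detected in 2 to 7 libraries. After Benjamini-Hochberg adjustment 0 of the 1811 long-arm regions tested passed (lowest adjusted p of Fisher's exact test 0.753), and 0% of all regions tested did. At an unadjusted p below 0.05, 3 long-arm regions (0.166%) had more detections in injured and 68 (3.75%) in control libraries, against 0.213% and 4.27% of all regions tested. The steps of the test are uneven between the groups. A peak in 3 control and 0 injured libraries falls below 0.05, as in 40 of the 68. A peak in 3 injured and 0 control libraries, as in 11 regions, does not. Without regard to p, 459 (25.3%) had a higher detection rate in injured and 1352 (74.7%) in control libraries, against 23.8% and 76.2% of all regions tested. The control group was smaller, so a region with equal counts in both groups had the higher rate in control libraries. The 1352 included 422 regions detected in 1 library of each group, 121 in 2 of each and 78 in 3 of each. For these regions the direction was fixed by the group sizes. The long-arm shares were close to those of the whole genome. Control lists were longer, and the part of list length in these shares was not tested.

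In the equal-length lists 0 of 1258 long-arm regions passed adjustment, as did 0% of 23147 regions in all (lowest adjusted p of Fisher's exact test 1). At an unadjusted p below 0.05 there were 5 (0.397%) more often detected in injured and 35 (2.78%) in control libraries, against 0.674% and 2.43% of all regions tested. The same uneven steps apply to these counts. Without regard to p, 508 (40.4%) had a higher detection rate in injured and 750 (59.6%) in control libraries, against 38.6% and 61.4% of all regions tested. Regions with equal counts again fell on the control side. Fisher's exact test had few steps, since 5 against 4 libraries allow no p below 0.00794, so a count of 0 does not show that regions were alike.

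As deposited, 1 long-arm region was detected in all 5 injured and 0 control libraries (0.0236% of its 4239 regions) and 6 were detected in all 4 control and 0 injured libraries (0.142%). Among all regions these shares were 0.00473% and 0.121%. The injured-only region lies at 37957830 to 37958241, where its peaks held ranks from 5304 to 21730. The control-only regions lie at 26196741 to 26197065, 36590841 to 36591255, 36757379 to 36757601, 46495679 to 46495901, 53564777 to 53565499 and 56332051 to 56332777. The last had the best standing, with rank 1434, 2160, 23306 and 2113 in control libraries 1 to 4. Each gave a Fisher's exact p of 0.00794 and an adjusted p of 0.753. In the equal-length lists 0 long-arm regions were exclusive to injured (0.012% of all regions) and 0 to control libraries (0.0736% of all regions).

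At equal length all 40 long-arm regions with a p below 0.05 tied at the same value (p = 0.0476 each by Fisher's exact test, 1 after adjustment). These ties were ordered by the difference in detection rate, then by median rank percentile. By that order the first 4 in each direction had 1 of 2 patterns. These were a peak in 4 injured and 0 control libraries or in 1 injured and all 4 control libraries. Those more often detected in injured libraries lay at 62982762 to 62983816, 48663231 to 48663457, 42663812 to 42664289 and 33406841 to 33407260. In the full lists 3, 1, 1 and 1 control libraries had a peak there. Those more often detected in control libraries lay at 32997893 to 32998821, 60459035 to 60459863, 63355280 to 63355701 and 63347497 to 63347892. In the full lists each of these 4 had a peak in 1 injured library, so none of the 8 was exclusive to a group. The last 2 lie in the run from 63343984 to 63357117, and injured library 1 was the injured library with a peak in both.

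Windows of 1 Mb were compared on the percentage of a library's peaks they held, by an exact permutation test over all 1308 windows of the genome in the equal-length lists. Of the 40 long-arm windows 0 passed adjustment, as did 0% of all windows (lowest adjusted p of the exact permutation test 0.993). At an unadjusted p below 0.05, 0 were higher in injured (2.22% of all windows) and 1 was higher in control libraries (2.29% of all windows). This was 35 to 36 Mb, with 22, 26, 22, 32 and 23 peaks in injured against 36, 34, 26 and 35 in control libraries (p = 0.0476 by the exact permutation test, 0.993 adjusted). Injured library 4 and control library 3 overlapped there. Next came 25 to 26 Mb, where injured libraries averaged 3.00 ± 1.22 peaks and control libraries 5.00 ± 1.41 (exact permutation p = 0.0873).

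The windows first in order on the injured side did not differ beyond the spread. From 47 to 48 Mb injured libraries averaged 17.2 ± 5.54 peaks and control libraries 12.8 ± 4.57 (exact permutation p = 0.254). From 37 to 38 Mb injured libraries averaged 18.6 ± 2.88 peaks and control libraries 17.0 ± 1.63 (exact permutation p = 0.349). Over all 40 windows the mean share was higher in injured libraries in 18 (45%), against 48.9% of all windows. In the lists as deposited it was higher in injured libraries in 35 of 40 (87.5%), against 47.9% of all windows. There 0 windows passed adjustment (0% of 1352), and 1 was higher in injured (1.48% of all windows) and 0 in control libraries (2.66% of all windows) at an unadjusted exact permutation p below 0.05. This was 28 to 29 Mb, named after its value was seen, with 0.201% of the peaks in injured and 0.138% in control lists (p = 0.0238 by the exact permutation test, 0.965 adjusted), and at equal length injured libraries averaged 42.0 ± 4.85 peaks there and control libraries 42.5 ± 3.87. These windows share their libraries, so the 35 are not separate results, and they go with the higher share of the stretch as a whole in injured lists as deposited.

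The strength of the common regions was compared by their rank among the 1893 regions detected in all 9 libraries. The median rank percentile of the 248 long-arm regions was 61.6, 59.1, 69.4, 62.7 and 62.5 in injured and 54.4, 67.6, 57.5 and 53.1 in control libraries. Control library 2 lay within the injured range and the other 3 control libraries below it. Injured libraries averaged 63.1 ± 3.84 and control libraries 58.1 ± 6.58 (exact permutation p = 0.183). Without control library 2 the difference was 8.22 in place of 4.92 percentile points (exact permutation p = 0.0179, unadjusted). This was the only control library within the injured range, and that p is the smallest that 5 against 3 libraries allow. Leaving out any other library gave an exact permutation p from 0.114 to 0.393.

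By region, 0 of the 248 passed Benjamini-Hochberg adjustment over the 1893 (0% of all; lowest adjusted p of the exact permutation test 0.935). At an unadjusted exact permutation p below 0.05, 5 (2.02%) ranked better in injured and 1 (0.403%) in control libraries, against 2.32% and 0.898% of all common regions. The mean rank was better in injured libraries for 156 of the 248 (62.9%), against 49.3% of all common regions, with a median difference of 2.75 percentile points, against -0.0608 over all. On the other numbered chromosomes the share was 45.8%. Regions share their libraries, so the 156 are not separate results. They go with the difference in median rank percentile between groups (exact permutation p = 0.183). First on the injured side came 47381130 to 47381716, with 54.8, 58.0, 76.7, 62.6 and 62.6 in injured and 51.2, 25.8, 49.0 and 39.9 in control libraries. These ranges do not overlap (exact permutation p = 0.00794, adjusted p = 0.935). First on the control side came 42253352 to 42254187, where injured libraries averaged 25.9 ± 9.54 and control libraries 43.3 ± 5.23 (exact permutation p = 0.0317, adjusted p = 0.935).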

How the data were processed

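The authors deposited 1 peak list per library (BED, 0-based starts; coordinates are given 1-based here), each peak with a score. Per the submitters' processing notes, the build was GRCz11 and the tools included Trim Galore, Bowtie2, SAMtools, Picard and MACS2. Not given in the sources used here: versions, Tn5 shift, treatment of duplicates and of multiply mapping reads, and the threshold for a peak. The deposited score has no stated scale and only ranked peaks within a list (ties by width, then position).

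Per the labels, libraries kept 4.6 to 29 M reads, without a value per library, so depth is unknown and no counting interval is given. From the lists, Python 3.11.15, NumPy 2.4.6, pandas 2.3.3 and SciPy 1.17.1 computed values per library, regions and windows of 1 Mb holding at least 18 peaks in all. Group differences were tested by exact two-sided permutation over 126 assignments (smallest p 0.00794), with Benjamini-Hochberg adjustment over 8 values as deposited or 7 at equal length. Parts of the genome were compared within libraries by 512 sign flips over 9 libraries. Region detection used Fisher's exact test. No library was entered more than once: at most 5 long-arm peaks were identical between 2 lists.

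The interval, members and lists were chosen with earlier results of these data known. Named regions were the 8 best-ranked and 3 widest common to all libraries and the first 4 in each direction at equal length; named windows were the 3 fullest, the 3 emptiest and the first 2 in each direction. Group-exclusive regions, runs, the 150 kb and 200 kb stretches and the ranking of common regions were named or added after values were seen. Genes of this arm were not analysed here, since no annotation of GRCz11 was used.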

Additional observations from a re-analysis of the deposited data

Results flagged for a closer look

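A set of 5 values stood out because 1 library lay far from the others of its group, by Dixon's 95% limit on the gap over the range. They came from 78 groups of values, where chance alone would give about 3.9, and all 5 were the highest injured value and belonged to injured library 1.

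From 63 to 64 Mb this library had 160 peaks as deposited, the next injured library having 54, and 122 at equal length, the next having 51. In the run from 63343984 to 63357117 it had 18 peaks against 6 in the next injured library. In the run from 28871082 to 28887706 it had 15 against 10. Of its long-arm peaks as deposited 42.8% had a neighbour within 1 kb, against 30.4% in the next injured library. These values share peaks with one another and are not 5 separate cases. What sets this library apart was not tested.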

How the results depend on the processing

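Of 224 alternative values, 205 were taken as unchanged. For differences this meant the same direction and the same side of the threshold. For counts it meant an equal or similar number, such as 10 group-exclusive regions in place of 7. Alternatives were run for 5 of the 12 comparisons within libraries (width, recurrence, rank and close neighbours against the other chromosomes, and recurrence against the first 25 Mb). These and the counts of 0 adjusted calls were among the 205 under every alternative run, and the other 7 comparisons had none. The counts of 0 had little room to change, since 5 against 4 libraries allow no p below 0.00794. Leaving out 1 library raises that limit, so their staying at 0 says little. Values that turned round concerned differences between groups that had not passed the test. At equal length the injured minus control difference was -0.253 percentage points in place of 0.822 for the share of peaks, -0.627 in place of 0.225 for the density over the first 25 Mb and -2.95 bp in place of 28.2 bp for the median width. In the lists as deposited the difference in share was 0.822 in place of -0.253 and that in recurrence 4.64 in place of -0.877 percentage points. In the better-ranked 50% of the equal-length lists the difference in share was 0.268. The cause of these turns was not tested.

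Group-exclusive regions numbered 7 as deposited, 0 at equal length and 2 in the better-ranked 50% of the lists. Without 1 library they numbered 9 to 24, as fewer libraries then have to agree. Without 1 library the difference in recurrence ran from -2.56 to 1.16 points, above 0 without injured library 1 or 4 or control library 3 or 4. That in the rank of common regions ran from 3.68 to 8.22 percentile points, with 8.22 without control library 2 (exact permutation p = 0.0179, the smallest possible there). Without any other library its exact permutation p was 0.114 to 0.393. The difference in share ran from 0.559 to 1.14 points as deposited and from -0.624 to -0.00852 at equal length, that in density over the first 25 Mb from 0.112 to 0.364, that in median width from 15.5 to 42.9 bp and that in covered length from -174.5 to -92.8 kb. The long-arm peak difference ran from -524 to -317 and its lowest exact permutation p was 0.0357, without control library 3 (adjusted p = 0.214). The lowest adjusted p over 107 alternatives of values per library was 0.152. Beside the adjusted counts of 0, unadjusted Fisher calls in the stretch were 71 as deposited, 40 at equal length and 9 to 24 without 1 library. Without 1 library only complete separation of the groups gives a Fisher's exact p below 0.05. Those 9 to 24 calls are therefore the same as the group-exclusive regions, and their fall from 71 follows from the steps of the test.

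Replicate numbers recur in both groups, but the labels tie no pairs. The deviations of same-numbered libraries correlated from -0.152 to 0.199 over 1308 windows. For the 16 pairs with different numbers the range was -0.182 to 0.205. With a replicate block (4 pairs, smallest possible exact p 0.125) the difference was -392 peaks and 0.59 percentage points of share. With that smallest p the block could make no call. The 63 to 64 Mb window was left out as an alternative added after the data had been seen. Unknown depth limits every statement on undetected regions.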
